A study of Homo sapiens with 6 samples.

Results

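ATF4 and 9 genes that are widely used as readouts of its activity (ATF3, DDIT3, CHAC1, TRIB3, ASNS, SESN2, DDIT4, PPP1R15A and CTH) were followed in Kasumi-1 cells depleted of FBL. The genes were taken by symbol from a count table of 31966 gene rows, where each of the 10 had exactly 1 row. Of these, 9 were abundant enough to be tested among 18486 genes, and ASNS was not. Kasumi-1 is an established acute myeloid leukaemia line with the RUNX1-RUNX1T1 fusion. In 3 FBL knockdown samples a doxycycline-inducible short hairpin RNA was directed against FBL, which encodes fibrillarin, the methyltransferase that modifies ribosomal RNA. In 3 control samples the hairpin was directed against luciferase, which these cells do not encode. Both groups received doxycycline at 100 ng/ml for 72 h, so the drug is common to them. The labels name 1 hairpin per group and say neither whether the lines are clones nor whether the replicates are separate cultures, so a p-value measures only how far these samples differ, and that spread may be technical.

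The integrated stress response is switched on when a kinase phosphorylates the translation initiation factor eIF2, which then blocks its own exchange factor, eIF2B. General translation falls, while upstream reading frames in its leader allow the ATF4 messenger RNA to be translated more, so ATF4 is set largely at the level of protein. ATF4 binds with C/EBP-family partners to composite elements near genes of amino acid supply, redox balance, feedback and cell death. The values here are messenger RNA levels, and protein levels were not analysed here.

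The composite C/EBP-ATF element is commonly written with the core letters TGATGCAA or the variant TGATGAAA. In RefSeq promoters on GRCh38.p14, which run from 250 bases before to 50 bases after a start, these letters occurred on either strand in 1.96% of 35116 promoters. Among the promoters of the 10 genes, CHAC1 and ASNS each held 1 match. The share is per promoter, and some of these genes, ASNS among them, have more than 1 promoter. The second ASNS promoter held 0 matches. Both are printed because they were the only matches. CHAC1 was among the genes that fell, and ASNS was nearly unmeasured. The promoter of CTH, which fell further than CHAC1, held 0 matches. The windows below are 30 bases long, read 5′ to 3′ on the strand of the gene, with the motif in capitals.

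CHAC1: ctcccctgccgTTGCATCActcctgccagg

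ASNS: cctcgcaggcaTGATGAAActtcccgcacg

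The CHAC1 window lies at chr15:40953251-40953280 (plus strand), where the motif reads TGATGCAA on the opposite strand and begins 209 bases before the RefSeq start at 40953471. The ASNS window lies at chr7:97872458-97872487 (minus strand), with the motif on the strand of the gene and 68 bases before a RefSeq start at 97872408. Both windows lie inside the longer gene spans of GENCODE v29 used below, where they overlap an exon of 2 of 5 CHAC1 transcripts and of 4 of 17 ASNS transcripts. For the other 8 genes these letters are not in the windows searched. The longer endoplasmic reticulum stress element, ERSE, was in 0.0769% of all promoters and in none of these.

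The knockdown was present in all libraries so labelled. FBL had 54.0, 32.4 and 44.9 CPM (counts relative to the scaled library total) in FBL knockdown cells, against 580, 550 and 544 CPM in control cells (log2 fold change -3.67 ± 0.16 SE). Total counts were between 85556322 and 95023102 in FBL knockdown libraries and between 88541034 and 103148412 in control libraries. Kasumi-1 and immature myeloid markers were detected for 10 of 10 genes (PTPRC only weakly), with summed levels of 5917 to 6977 CPM in FBL knockdown cells and 7418 to 8932 CPM in control cells. Most of that sum was MPO, at 5413 CPM in FBL knockdown cells and 7256 CPM in control cells (log2 fold change -0.42, adjusted p = 0.0134), while CD34 (0.66, adjusted p = 0.0024) and ANPEP (0.60, adjusted p = 0.000314) were higher. Transcripts of mitochondrial genes took 14.7% to 18.8% of counts in FBL knockdown libraries and 12.4% to 15.2% in control libraries, and without them 3 of the stress response genes fell and 1 rose, with 32.9% of all tested genes called. The part of the marker levels in the results was not tested. Erythroid, epithelial and fibroblast markers each summed to less than 0.15 CPM in every library. Lymphoid markers summed to 0.25 to 0.48 CPM in FBL knockdown libraries and 0.52 to 0.61 CPM in control libraries. Libraries also differed by the base composition of transcripts. Across 18439 genes, the correlation of a library's log2 CPM, as deviation from the mean of the 6 libraries, with transcript GC content was 0.33, -0.15 and -0.05 in FBL knockdown replicates 1, 2 and 3, and -0.34, 0.38 and -0.14 in control replicates 1, 2 and 3. Knockdown replicate 1 and control replicates 1 and 2 therefore stood apart.

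The 10 genes did not move in 1 direction. In edgeR's quasi-likelihood test with Benjamini-Hochberg adjustment over all tested genes, CTH, CHAC1, ATF3 and DDIT4 fell and PPP1R15A rose past an adjusted p of 0.05. ATF4, DDIT3, TRIB3 and SESN2 did not pass. Thus 5 of 9 tested genes were called, where 32.8% of all tested genes were called. By direction, 4 fell, where 17.0% of all tested genes fell, and 1 rose, where 15.8% rose. The median log2 fold change of the 9 was -0.24, against -0.01 over all tested genes. Levels of the groups did not overlap for 5 of 9 genes, a pattern seen in 45.2% of tested genes. With upper-quartile scaling, 58.7% of all calls were higher rather than 48.2%, and 2 of these genes fell and 1 rose, with 33.1% of all tested genes called. On omission of knockdown replicate 2, knockdown replicate 3, control replicate 2 or control replicate 3, 2 of these genes fell, and 0 rose when any 1 library except control replicate 2 was left out. The share of all tested genes called was 30.0%, 21.0% and 21.4% without knockdown replicates 1, 2 and 3, and 31.2%, 36.9% and 22.3% without control replicates 1, 2 and 3. In a bulk measurement, a change in the proportion of cells expressing a gene and a change in RNA per cell cannot be told apart.

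**Figure D1:**
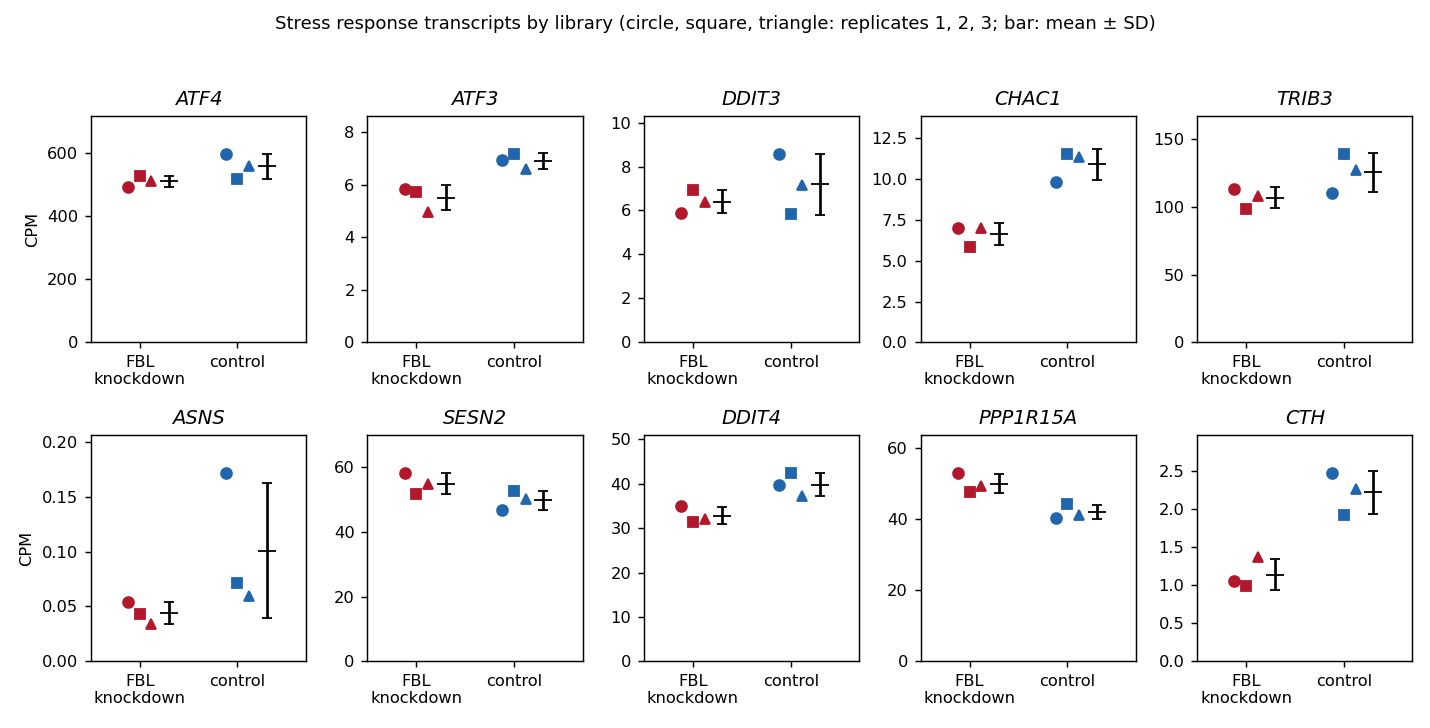
Each panel plots CPM of 1 gene in the 3 FBL knockdown libraries (left) and the 3 control libraries (right), with the mean ± SD as a bar. CHAC1 and CTH are below all control libraries in every knockdown library, whereas the libraries of ATF4, DDIT3, TRIB3 and SESN2 overlap between groups.

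ATF4 itself (22:39519695-39522685 on GRCh38, plus strand) was at 492, 525 and 509.9 CPM in FBL knockdown cells, against 596, 518 and 557 CPM in control cells. Knockdown replicate 2 lay above control replicate 2, so the groups overlapped. The mean was 509 ± 16.7 CPM in FBL knockdown cells and 557 ± 39.1 CPM in control cells (SD, n = 3 each). The log2 fold change was -0.13 ± 0.08 (SE), with a 95% interval from -0.31 to 0.05 and an adjusted p of 0.257. Without control replicate 1 it was -0.085 (adjusted p = 0.536) and with upper-quartile scaling -0.066 (adjusted p = 0.576). The processed pseudogenes ATF4P3 and ATF4P4 hold 15456 and 3836 counts over the 6 libraries, against 301502 for ATF4, and reads shared with them may be split. ATF4P3 had a log2 fold change of -0.14 (adjusted p = 0.298).

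The 2 transcription factor genes downstream of ATF4 showed small differences. ATF3, a stress-induced bZIP factor (1:212565334-212620777, plus strand), was at 5.81, 5.73 and 4.95 CPM in FBL knockdown cells and at 6.95, 7.17 and 6.58 CPM in control cells. All knockdown libraries were below all control libraries, and the log2 fold change was -0.33 ± 0.11 (adjusted p = 0.0373), a level 20.2% lower. The ATF3 call did not survive omission of knockdown replicate 2 (adjusted p = 0.0776), knockdown replicate 3 (0.204), control replicate 1 (0.0569), control replicate 2 (0.0530) or control replicate 3 (0.0741). DDIT3, which encodes the pro-apoptotic factor CHOP (12:57516588-57521737, minus strand), was at 5.89, 6.95 and 6.39 CPM in FBL knockdown cells and at 8.58, 5.83 and 7.17 CPM in control cells. Control replicates 1 and 2 enclosed all knockdown libraries. Its log2 fold change was -0.17 ± 0.14, with an interval from -0.48 to 0.15 (adjusted p = 0.401). The DDIT3 value rested on the controls kept, at -0.028 without control replicate 1 (adjusted p = 0.892) and -0.30 without control replicate 2 (adjusted p = 0.0573). Of its exonic bases, 39.6% are shared with other genes in GENCODE v29, which include MARS and MBD6 on the opposite strand, and reads there cannot be assigned without a stated strand setting.

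CTH and CHAC1, both of sulphur and glutathione metabolism, had the largest decreases of the 9 genes. CTH encodes cystathionine gamma-lyase, which makes cysteine from cystathionine (1:70411218-70439851, plus strand). It was at 1.06, 0.986 and 1.38 CPM in FBL knockdown cells, against 2.48, 1.92 and 2.26 CPM in control cells, so that the highest knockdown library was below the lowest control library. The log2 fold change was -0.96 ± 0.17, with an interval from -1.34 to -0.59 and an adjusted p of 0.00166, and the level was 48.6% lower. Of all tested genes, 6.26% had a larger absolute log2 fold change. CTH rested on 98, 91 and 122 reads in FBL knockdown libraries and 231, 188 and 229 reads in control libraries.

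CHAC1, a gamma-glutamylcyclotransferase that degrades glutathione (15:40952962-40956519, plus strand), was at 7.03, 5.87 and 6.996 CPM in FBL knockdown cells. In control cells it was at 9.83, 11.6 and 11.4 CPM. The groups did not overlap, and the log2 fold change was -0.72 ± 0.11, with an interval from -0.97 to -0.47 (adjusted p = 0.000822), 39.3% lower. For 12.99% of all tested genes the absolute log2 fold change was larger. Both genes stayed past the threshold in every leave-one-out fit, with a log2 fold change between -1.09 and -0.86 for CTH and between -0.79 and -0.64 for CHAC1.

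ASNS, the asparagine synthetase (7:97852118-97872542, minus strand), was almost without reads. It had 5, 4 and 3 counts in FBL knockdown libraries and 16, 7 and 6 counts in control libraries. Summed, these were 12 counts (95% interval 6.20 to 21.0) in FBL knockdown cells and 29 counts (19.4 to 41.6) in control cells. The ratio of knockdown to control was 0.442, with an interval from 0.206 to 0.894 that covers counting error only, and in edgeR's test without a filter on low counts the adjusted p was 0.204. A read-through gene on the same strand shares 96.1% of the coding bases of ASNS in GENCODE v29 and has a row of its own with 74 counts. The rule for reads that match both genes is not given in the sources used here, and the part of this overlap in the count of ASNS was not tested, so its level cannot be read as absence of ASNS messenger RNA.

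Of the 2 feedback genes, PPP1R15A was the gene that rose. PPP1R15A encodes GADD34, which brings protein phosphatase 1 to eIF2 and so reverses its phosphorylation (19:48872392-48876057, plus strand). It was at 53.0, 47.8 and 49.3 CPM in FBL knockdown cells and at 40.4, 44.3 and 41.3 CPM in control cells, with no overlap. The log2 fold change was 0.25 ± 0.08, with an interval from 0.07 to 0.44 (adjusted p = 0.0386), a level 19.1% higher. The PPP1R15A call was lost without knockdown replicate 1 (adjusted p = 0.117), 2 (0.0625) or 3 (0.0850), and without control replicate 1 (0.102) or 3 (0.142). Its paralogue PPP1R15B, the constitutive form, was at 11.8, 12.9 and 13.7 CPM in FBL knockdown cells and 17.1, 13.4 and 16.1 CPM in control cells, with a log2 fold change of -0.28 ± 0.11 (adjusted p = 0.0760). PPP1R15B passed the threshold without control replicate 2 (-0.37, adjusted p = 0.00766). It also passed with a correction for GC content that was added after the data were seen (-0.26, adjusted p = 0.0124).

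Per length, the ratio of PPP1R15A to PPP1R15B was 7.57, 6.27 and 6.09 in FBL knockdown libraries, against 4.001, 5.57 and 4.35 in control libraries. The highest control ratio was below the lowest knockdown ratio, and the mean was 6.64 ± 0.81 in FBL knockdown cells and 4.64 ± 0.82 in control cells (SD, n = 3 each). A 2-sided exact permutation test gave p = 0.1, the smallest that 3 against 3 allows, so the test cannot pass 0.05 at this size and the ratio is given as a description.

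TRIB3, a pseudokinase that binds ATF4 and restrains it (20:362835-397559, plus strand), was at 114, 98.4 and 108 CPM in FBL knockdown cells and at 111, 139 and 128 CPM in control cells. Knockdown replicate 1 exceeded control replicate 1, so the groups overlapped. Of their groups, knockdown replicate 1 was the richest in GC-rich transcripts and control replicate 1 the poorest. The TRIB3 log2 fold change was -0.24 ± 0.10 with an interval from -0.46 to -0.01 (adjusted p = 0.0951). Without control replicate 1 it was -0.33 (adjusted p = 0.0260), and with a correction for GC content it was -0.26 (adjusted p = 0.00221), so both moved it past the threshold.

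**Figure D2:**
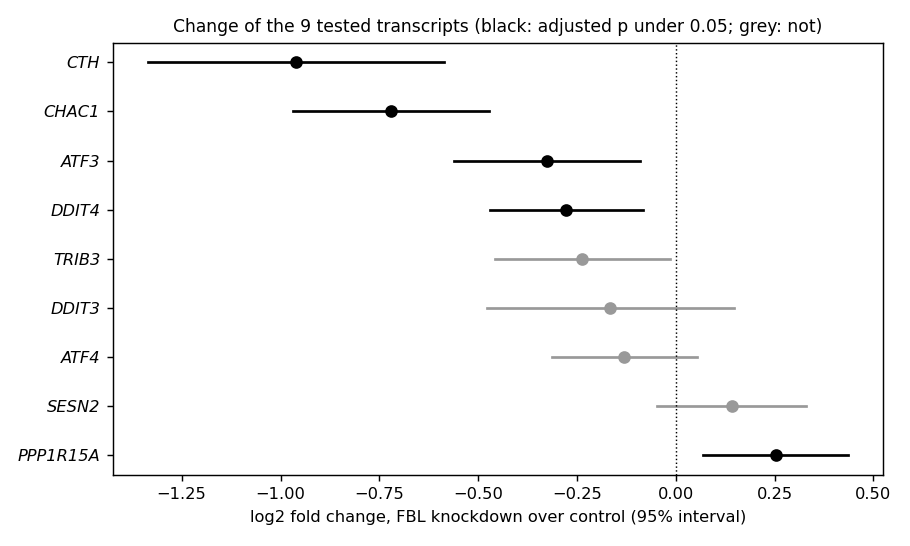
The log2 fold change of each tested gene (FBL knockdown over control) is drawn with its 95% interval, and black points passed an adjusted p of 0.05. The intervals of CTH and CHAC1 lie farthest from 0, PPP1R15A is the gene called higher, and the interval of ATF4 includes 0.

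Of the 2 genes that restrain the growth kinase complex mTORC1, DDIT4 fell and SESN2 did not pass. DDIT4, also called REDD1, acts through the TSC complex (10:72273920-72276036, plus strand). It was at 34.9, 31.5 and 32.0 CPM in FBL knockdown cells and 39.7, 42.4 and 37.2 CPM in control cells, with no overlap. The log2 fold change was -0.28 ± 0.09, with an interval from -0.47 to -0.08 (adjusted p = 0.0322), a level 17.5% lower. Omission of knockdown replicate 2 (adjusted p = 0.121), knockdown replicate 3 (0.175), control replicate 2 (0.0682) or control replicate 3 (0.0525) took the DDIT4 call away. An antisense gene, DDIT4-AS1, shares 41.2% of the exonic bases of DDIT4, and its own level was 24.0 ± 0.39 CPM in FBL knockdown cells and 28.0 ± 1.75 CPM in control cells (log2 fold change -0.22, adjusted p = 0.0634). Reads of this pair cannot be told apart where strand was not used.

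SESN2, a leucine sensor that acts on mTORC1 through the GATOR2 complex (1:28259527-28282491, plus strand), was at 58.2, 51.7 and 54.6 CPM in FBL knockdown cells and at 46.6, 52.5 and 50.1 CPM in control cells. Knockdown replicate 2 lay below control replicate 2. Its log2 fold change was 0.14 ± 0.09, with an interval from -0.05 to 0.33 (adjusted p = 0.234). It was 0.092 without control replicate 1 (adjusted p = 0.504).

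Libraries of 1 group varied together across these genes. In FBL knockdown cells, ATF4 and DDIT3 were lowest in replicate 1 and highest in replicate 2, and the reverse held for TRIB3, CHAC1, SESN2 and PPP1R15A. In control cells, ATF4, DDIT3 and CTH were highest in replicate 1 and lowest in replicate 2, whereas TRIB3, CHAC1, SESN2 and PPP1R15A were lowest in replicate 1 and highest in replicate 2. The transcripts of ATF4, DDIT3 and CTH have a GC content of 56.7%, 49.7% and 43.3%, and those of TRIB3, CHAC1, SESN2 and PPP1R15A of 60.9%, 62.6%, 59.5% and 58.8%. The other genes did not follow this split by GC content throughout. ATF3, at 46.7% GC, was highest in knockdown replicate 1 and control replicate 2, which were rich in GC-rich transcripts. DDIT4, at 58.1%, was highest in the same 2 libraries but lowest in control replicate 3, and CTH was highest in knockdown replicate 3. With a per-library GC correction, chosen after seeing the data, 5 of these genes fell and 1 rose, where 4 fell and 1 rose without it, while the share of all tested genes called went up to 45.6%. Without the library of each group richest in GC-rich transcripts (knockdown replicate 1 and control replicate 2), 4 fell and 1 rose, with 39.8% of all tested genes called.

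Levels were compared between genes on the deposited scale of RPKM, which divides the scaled read count by the deposited gene length in kilobases. For 9 of the 10 genes this length equals all exonic bases of the gene in GENCODE v29, not the length of 1 transcript. The order of genes therefore depends on the annotation. ATF4 was the most abundant of the 10, at 202 ± 4.10 RPKM in FBL knockdown cells and 222 ± 14.7 RPKM in control cells (SD, n = 3 each), above 99.1% of all gene rows in both. TRIB3 was next, at 31.0 RPKM in FBL knockdown cells and 36.7 RPKM in control cells. PPP1R15A (16.1 RPKM), DDIT4 (15.9) and SESN2 (15.9) followed in FBL knockdown cells, and their libraries overlapped. In control cells the order was DDIT4 (19.4 RPKM), SESN2 (14.4) and PPP1R15A (13.6), with DDIT4 apart and the last pair overlapping. DDIT3 and CHAC1 were apart in FBL knockdown cells, at 5.05 and 3.22 RPKM, and overlapped in control cells, at 5.69 and 5.32 RPKM. ATF3 was at 1.36 RPKM in FBL knockdown cells and 1.71 RPKM in control cells, and CTH was at 0.472 RPKM in FBL knockdown cells and 0.922 RPKM in control cells. ASNS was last in both groups.

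**Figure D3:**
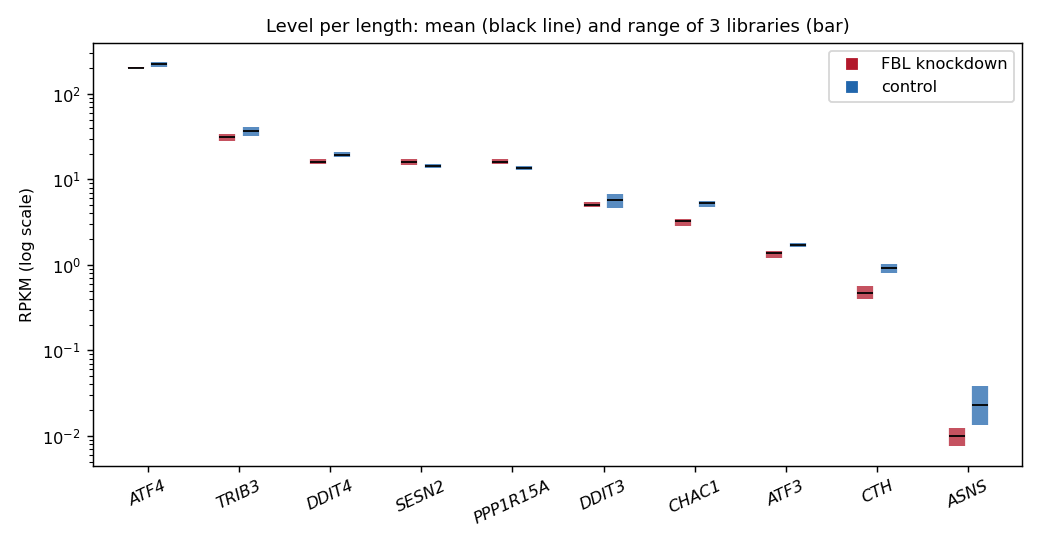
Bars span the lowest to the highest RPKM (log axis) of 3 libraries per group, with the mean as a black line, for FBL knockdown (left of each pair) and control (right). ATF4 lies far above the rest, and the order of DDIT4, SESN2 and PPP1R15A differs between the groups.

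The comparison with ATF4 over the 6 libraries took genes with a mean of at least 10 CPM and left out clone-based and LINC names. Among these 7185 genes, those that followed ATF4 most closely were FBXO7 (Pearson r of log2 CPM 0.997), BRD7 (0.996), CSNK1A1 (0.993), FEZ2 (0.993) and GNL3 (0.991). In all, 403 of the 7185 genes had r above 0.9. Among the stress response genes, r with ATF4 was 0.93 for DDIT3, 0.78 for CTH, 0.57 for ATF3, 0.50 for CHAC1, 0.43 for DDIT4, 0.02 for TRIB3, -0.91 for PPP1R15A and -0.97 for SESN2. These 6 points share libraries and the GC difference described above, so r is a description.

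Closest relatives of these genes were taken from a list of 11, of which 10 had a row and 9 were tested. ATF5, the nearest relative of ATF4, which is also listed among its partners, fell and the other 8 did not pass. The median log2 fold change was -0.23, and 11.1% of the tested relatives were called, against 32.8% of all tested genes. ATF5 was at 55.4, 50.4 and 50.8 CPM in FBL knockdown cells and at 59.0, 67.7 and 60.7 CPM in control cells (log2 fold change -0.26 ± 0.09, adjusted p = 0.0415). Its call was lost without knockdown replicate 2 (adjusted p = 0.141), knockdown replicate 3 (0.216), control replicate 2 (0.104) or control replicate 3 (0.0941).

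CHAC2, which like CHAC1 degrades glutathione, was at 7.45, 8.16 and 7.97 CPM in FBL knockdown cells and at 9.51, 8.34 and 9.82 CPM in control cells (log2 fold change -0.23 ± 0.10, adjusted p = 0.107). CHAC2 passed without control replicate 2 (-0.30, adjusted p = 0.0339) and with the GC correction (-0.29, adjusted p = 0.00795). For the sestrin relatives of SESN2, SESN1 had a log2 fold change of 0.12 (adjusted p = 0.633) and SESN3 of -0.30 (adjusted p = 0.0735). SESN3 passed without control replicate 2 (-0.42, adjusted p = 0.00299) and with the GC correction (-0.37, adjusted p = 0.0016). For the pseudokinase relatives of TRIB3, the log2 fold change was -0.23 for TRIB1 (adjusted p = 0.169) and 0.04 for TRIB2 (adjusted p = 0.849). CBS, which makes the substrate of CTH, had 5 counts in all and has a near-identical copy, CBSL, so its value is uncertain.

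Upstream of ATF4, none of the 4 kinases of eIF2 passed the test. EIF2AK1 (HRI, the haem-regulated kinase) was the most abundant of them per length, at 25.1 ± 0.50 RPKM in FBL knockdown cells and 25.4 ± 0.51 RPKM in control cells (SD, n = 3 each). Its log2 fold change of -0.01 (adjusted p = 0.917) changed sign between scalings. EIF2AK2 (PKR, activated by double-stranded RNA), EIF2AK3 (PERK, of the endoplasmic reticulum) and EIF2AK4 (GCN2, activated by uncharged transfer RNA) were each below 1 RPKM, with log2 fold changes of -0.08, -0.18 and -0.23 (adjusted p = 0.735, 0.443 and 0.152). EIF2AK4 passed without control replicate 2 (-0.31, adjusted p = 0.0356). In the list of kinases, phosphatase subunits and sensors, 2 of 14 fell and 0 rose (median -0.10), where over all tested genes 17.0% fell, 15.8% rose and the median was -0.01. GCN1, the activator of GCN2 on ribosomes, was at 150, 129 and 132 CPM in FBL knockdown cells and at 194, 187 and 184 CPM in control cells (log2 fold change -0.46 ± 0.08, adjusted p = 0.00205). DNAJC3, an inhibitor of PERK and PKR, was the other (-0.52 ± 0.16, adjusted p = 0.0305), with overlapping groups, and lost its call without any of the knockdown replicates (adjusted p = 0.0904, 0.117 and 0.0554) or without control replicate 3 (0.135). Counts in this list were between 1 and 5 across omissions of a library, with 5 lower without control replicate 2. In that fit 36.9% of all tested genes were called, against 32.8% in the main test.

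Among the subunits of eIF2 and its exchange factor, 6 of 8 fell and 0 rose, where 32.8% of all tested genes were called. The median log2 fold change was -0.48. EIF2B5, the catalytic subunit of eIF2B, was at 83.6, 77.1 and 82.9 CPM in FBL knockdown cells and at 164, 139 and 144 CPM in control cells (log2 fold change -0.88 ± 0.09, adjusted p = 7.6e-05). EIF2S1, the subunit that is phosphorylated, was at 12.5, 14.6 and 15.4 CPM in FBL knockdown cells and at 24.2, 21.2 and 21.99 CPM in control cells (-0.67 ± 0.10, adjusted p = 0.000777). EIF2S2 was lower by a log2 fold change of -0.59 ± 0.13 (adjusted p = 0.00573). The groups did not overlap for 6 of the 8 subunits, these 3 included, a pattern seen in 45.2% of all tested genes.

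Among dimer partners and regulators of ATF4, 5 of 19 fell, 1 rose and the median was -0.10. Of the 19, 31.6% were called, near the 32.8% of all tested genes. NFE2L1, a stress-responsive factor of proteasome genes, was at 97.1, 81.8 and 81.1 CPM in FBL knockdown cells and at 190, 191 and 170 CPM in control cells (log2 fold change -1.08 ± 0.10, adjusted p = 4.07e-05). FOSL2, a subunit of AP-1, had a log2 fold change of -0.74 ± 0.09 (adjusted p = 0.00015). JUNB, another, was at 13.01, 12.9 and 13.04 CPM in FBL knockdown cells and at 14.1, 28.8 and 19.5 CPM in control cells (-0.68 ± 0.20, adjusted p = 0.0243). The JUNB call was lost without any of the knockdown replicates (adjusted p = 0.0574, 0.0943 and 0.0926) or without control replicate 3 (0.0502). Without control replicate 2, its highest library, JUNB stayed past the threshold at a smaller log2 fold change of -0.37 (adjusted p = 0.018). The gene that rose was CEBPA, a master factor of myeloid differentiation, named after its value was seen, at 0.40 ± 0.13 (adjusted p = 0.0341). It lost its call without any of the knockdown replicates (adjusted p = 0.105, 0.0701 and 0.0766), control replicate 1 (0.0833) or control replicate 3 (0.120). Of the exonic bases of CEBPA, 43.4% are shared with genes on the opposite strand in GENCODE v29, and reads there cannot be assigned without a stated strand setting. The share with other genes was 23.7% for ATF5 and 14.2% for JUNB. Without knockdown replicate 2, knockdown replicate 3 or control replicate 3, 3 of the 19 fell and 0 rose, and without control replicate 2, 3 rose. In these fits, in that order, 21.0%, 21.4%, 22.3% and 36.9% of all tested genes were called.

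ATF4 also drives genes of amino acid supply and transfer RNA charging. Of 18 tested genes of amino acid synthesis and uptake, 10 passed with a lower level and 1 with a higher one (median -0.39). Together, 61.1% of the list were called, against 32.8% of all tested genes. ALDH18A1, which starts proline synthesis, was at 74.97, 70.9 and 73.6 CPM in FBL knockdown cells and at 183, 149 and 160 CPM in control cells (log2 fold change -1.16 ± 0.09, adjusted p = 2.45e-05). The serine pathway enzymes PSAT1 and PHGDH had log2 fold changes of -1.04 ± 0.09 (adjusted p = 3.35e-05) and -0.81 ± 0.09 (adjusted p = 0.000125). The gene that rose, SLC1A4, a transporter of neutral amino acids, was named after its value was seen. It was at 60.5, 61.2 and 59.6 CPM in FBL knockdown cells and at 40.0, 38.5 and 37.8 CPM in control cells (0.64 ± 0.08, adjusted p = 0.000183). Without control replicate 2, 3 of the 18 rose, where 36.9% of all tested genes were called.

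In the transfer RNA charging list, 9 of 11 fell and 0 rose (median -0.64), where 32.8% of all tested genes were called. AARS1, which charges alanine, was at 28.2, 25.6 and 26.5 CPM in FBL knockdown cells and at 81.8, 55.8 and 62.8 CPM in control cells (log2 fold change -1.32 ± 0.13, adjusted p = 6.96e-05). GARS1, for glycine, and YARS1, for tyrosine, had log2 fold changes of -1.14 ± 0.16 (adjusted p = 0.000525) and -0.94 ± 0.10 (adjusted p = 0.000108). The groups did not overlap for 10 of the 11 genes, these 3 included, a pattern seen in 45.2% of all tested genes.

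Among other stress targets of ATF4 and DDIT3, 4 of 13 fell, 1 rose and the median was -0.19. The share called was 38.5%, against 32.8% of all tested genes. ADM2, a peptide hormone, was at 3.46, 2.73 and 2.61 CPM in FBL knockdown cells and at 4.59, 6.18 and 5.09 CPM in control cells (log2 fold change -0.85 ± 0.15, adjusted p = 0.00176). STC2, a secreted glycoprotein, and SQSTM1, the autophagy receptor p62, had log2 fold changes of -0.58 ± 0.10 (adjusted p = 0.00147) and -0.54 ± 0.09 (adjusted p = 0.00152). TXNIP, an inhibitor of thioredoxin named after its value was seen, rose (0.38 ± 0.11, adjusted p = 0.0174). It lost its call without knockdown replicate 2 (adjusted p = 0.0888) or control replicate 3 (0.0710).

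The ATF6 and XBP1 branch of the unfolded protein response was set beside these genes because it answers stress of the endoplasmic reticulum through ATF6 and XBP1. Whether ATF4 also acts on genes of this list was not tested. Of 14 tested genes, 8 fell and 1 rose (median -0.35), where 32.8% of all tested genes were called. HSPA5, the chaperone BiP, was at 63.1, 64.0 and 71.5 CPM in FBL knockdown cells and at 159, 134 and 131 CPM in control cells (log2 fold change -1.09 ± 0.10, adjusted p = 4.25e-05). Its cofactors DNAJB11 and SDF2L1 had log2 fold changes of -0.74 ± 0.10 (adjusted p = 0.000349) and -0.72 ± 0.16 (adjusted p = 0.0057). Other genes share 42.0% of the coding bases of DNAJB11 in GENCODE v29. XBP1 itself, the factor named in the list, was lower by a log2 fold change of -0.58 ± 0.08 (adjusted p = 0.000273). SEL1L, of the degradation machinery, rose and was named after its value was seen (0.51 ± 0.15, adjusted p = 0.0234), and its call was lost without knockdown replicate 2 (adjusted p = 0.106) or 3 (0.0748). Without knockdown replicate 3, 5 of the 14 fell, where 21.4% of all tested genes were called.

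**Figure D4:**
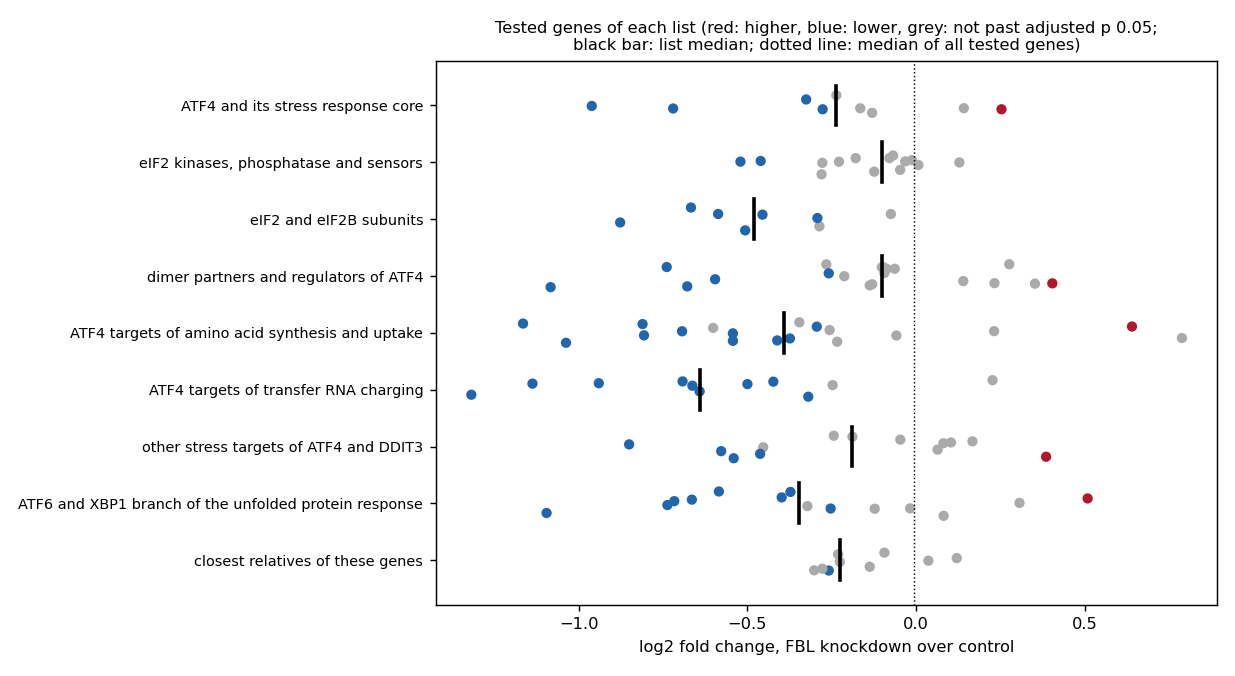
Each point is the log2 fold change (FBL knockdown over control) of a tested gene, by list, with called genes in red (higher) or blue (lower) and the list's median as a bar. The medians lie between -0.64 for transfer RNA charging and -0.10 for the eIF2 kinases and the partners of ATF4, with -0.24 for ATF4 and its core.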

How the data were processed

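RNA from 3 FBL knockdown and 3 control samples of Kasumi-1 was sequenced. The table the authors deposited gives read counts and the gene length per Ensembl gene. Per the submitters' processing notes, the tools were HISAT2, featureCounts, edgeR and cutadapt 1.18, on GRCh38. How strand and reads with several matches were handled, and which annotation was used, is not given in the sources used here. A second deposited table holds RPKM, of which the authors' 191796 values were recomputed from counts and lengths within a relative tolerance of 1e-06. No column was left unused (0). Some rows carried no gene symbol, among them those of DDIT4-AS1 and of the read-through gene over ASNS.

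Counts were filtered with filterByExpr (minimum count 10, minimum total 15), scaled by TMM and tested with edgeR 4.0.16 (glmQLFit, glmQLFTest) in R 4.3.3 on group alone, with Benjamini-Hochberg adjustment over 18486 genes and a threshold of 0.05. SE came from the quasi-likelihood F statistic, and CPM use the TMM-scaled library size. Positions, gene overlaps and GC content are from GENCODE v29, whose exonic length equals that in the table for 9 of the 10 genes, and promoters from RefSeq. Alternatives were other scalings and filters, DESeq2 1.42.0, limma 3.58.1 (voom, and trend on log2(RPKM + 1) and log2(RPKM + 0.1), which understates changes of low genes), the legacy dispersion, a replicate block, omission of mitochondrial genes and of each library, and GC settings added after the data were seen. On simulated data, 16% of changes of 1.25-fold, 78% of 1.5-fold and 100% of 2-fold were recovered. The percent counted as false there was 6.37%. A gene with a change below 1.25-fold that did not pass may therefore have been missed.

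The 10 genes and the 8 related lists were chosen with earlier results of these data known. The text names all 10 genes, FBL, from each list up to 3 genes with the largest change among those called at a mean of at least 1 CPM, and the 5 genes most like ATF4. Named kinases, relatives and the only higher gene of a list are outside this rule, as is XBP1. Intervals of fold changes cover the spread between libraries, and intervals of summed counts cover counting error only.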

Additional observations from a re-analysis of the deposited data

How the results depend on the processing

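Over 21 alternative settings, CHAC1 and CTH stayed past the threshold wherever they were tested (21 and 20 settings), and ATF4, DDIT3 and SESN2 stayed short of it in all 21. ATF3 lost its call in 11, PPP1R15A in 10 and DDIT4 in 8, and TRIB3 gained one in 3. None of the 9 tested genes changed sign. The count that fell was 2 rather than 4 with upper-quartile scaling, without a filter, with a stricter filter (8 genes tested) and with the replicate block, and the count that rose was 0 rather than 1 with library size only, without a filter, with the replicate block and with limma-trend at either pseudocount. On leaving out a library the count that fell was between 2 and 4 and the count that rose between 0 and 1. The share of all tested genes called moved as well, from 32.8% in the main test to 20.7% with the replicate block and 17.5% when unfiltered. It was 29.6% with library size only, 29.5% with limma-trend on log2(RPKM + 1) and 30.1% on log2(RPKM + 0.1). The stricter filter gave 44.2%, and upper-quartile scaling gave 33.1%. RLE scaling and DESeq2 each gave 32.7%, voom 32.2% and omission of mitochondrial genes 32.9%. The GC correction gave 45.6%, the replicate block with GC correction 42.1%, and omission of the GC-richest library of each group 39.8%. The cause of the differences between settings was not tested.

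Replicate numbers were not used to pair the samples in the main test. The deviations of same-numbered libraries correlated at -0.28, -0.20 and 0.04, and those of other pairs at -0.16 to 0.31. Because libraries of a group also differ by GC content, these values cannot decide whether same-numbered samples belong together. With the replicate block, 1987 of all tested genes fell and 1846 rose, where 3140 fell and 2920 rose without it, and with the stricter filter 1923 rose among 9176 tested. On leaving out a library the counts over all genes lay between 1835 and 3644 lower and between 1861 and 3298 higher. With the GC correction they were 4263 and 4159.

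For the kinases, phosphatase and sensors, the count lower was 1 with upper-quartile scaling, the stricter filter, the replicate block and limma-trend at either pseudocount, 4 with the GC correction, and 1 to 5 on leaving out a library. The count higher was 1 with the GC correction, with or without the replicate block. In those settings 42.1% (with the block) and 45.6% (without it) of all tested genes were called. Shares for the other settings are given above, and each count is to be read beside them. For the partners of ATF4, the count lower was 3 with the replicate block and limma-trend at either pseudocount and 3 to 6 on leaving out a library. The count higher was 2 with upper-quartile scaling, library size only, no mitochondrial genes, the stricter filter, DESeq2, voom and the replicate block with GC correction, 0 with the replicate block and limma-trend at either pseudocount, 3 with the GC correction, 4 without the GC-richest library of each group, and 0 to 3 on leaving out a library. For amino acid genes the count higher was 2 with the GC correction, 3 without those libraries and 1 to 3 on leaving out a library. For transfer RNA charging it was 1 with the GC correction, with or without the replicate block. For other stress targets it was 0 with the replicate block, 2 with the GC correction, with or without that block, and 0 to 1 on leaving out a library. For the ATF6 and XBP1 branch the count lower was 5 to 9 on leaving out a library. Its count higher was 0 with the replicate block and limma-trend on log2(RPKM + 0.1), 2 with the GC correction, and 0 to 1 on leaving out a library. For the closest relatives the count lower was 0 with RLE or upper-quartile scaling, no mitochondrial genes, no filter, DESeq2, the replicate block and limma-trend at either pseudocount, 4 with the GC correction, with or without the block, 3 without those libraries, and 0 to 3 on leaving out a library.

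Genes near 0 changed sign. EIF2AK1 was at a log2 fold change of 0.053 with upper-quartile scaling, 0.012 without mitochondrial genes, 0.036 with the stricter filter, 0.0060 with the GC correction, alone or with the replicate block, 0.00939 without those libraries, and -0.035 to 0.017 on leaving out a library. On leaving out a library EIF2AK2 was at -0.24 to 0.015 and TRIB2 at -0.014 to 0.089.

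Precision is limited by 3 libraries per group: a log2 fold change near 0.25 lies close to the threshold, as the calls of ATF3, DDIT4 and PPP1R15A show. ASNS and CBS had too few counts to test.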
